A study of Homo sapiens with 30 samples.

Results

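The HOX cluster genes of A375, a human melanoma cell line, were followed in 30 libraries of polyadenylated RNA. Members were all listed genes whose symbol is HOX, a cluster letter from A to D and a number. They came to 39 of the 26364 genes in the count files, with 11 in HOXA on chromosome 7, 10 in HOXB on chromosome 17, 9 in HOXC on chromosome 12 and 9 in HOXD on chromosome 2. The study stained cells for integrin β4 (ITGB4), the subunit of a laminin-binding adhesion receptor, and sorted them as positive or negative against unstained cells. It also passed cells repeatedly over fibronectin-coated membranes with 5 µm pores and kept either the cells that crossed (bottom) or those that did not (top). Each of the 10 groups held 3 libraries. Bottom10 positive and Bottom10 negative were cells that crossed in 10 rounds, and Top10 positive and Top10 negative were cells left above the membrane through 10 rounds, all carrying the ITGB4 status of their sort. Pos-BottomR5 cells were first sorted as positive and then crossed in 5 rounds, and Neg-BottomR4 cells were first sorted as negative and then crossed in 4 rounds. Top5 positive cells stayed above the membrane through 5 rounds, and Bottom5 negative cells went through it in 5 rounds. Parental positive and Parental negative cells were sorted without any migration. All groups derive from this 1 cell line. The labels number the libraries as biological replicates, and separate cultures are not stated. The p-values therefore reflect only how far these libraries differ, which may in part be technical.

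HOX genes encode transcription factors that bind DNA through a homeodomain and set the identity of body regions along the head-to-tail axis in the embryo. They lie in clusters in which the order of the genes follows the order of their use: genes with low position numbers, at the 3′ end, act towards the head, and genes with high numbers, at the 5′ end, act towards the tail and in the limbs and genital tract. Polycomb and Trithorax proteins hold the embryonic on or off state through cell divisions, retinoic acid switches 3′ genes on, and PBX, MEIS and PKNOX proteins bind DNA together with HOX proteins. Melanocytes arise from the neural crest, and HOXB7 is known in melanoma lines as an activator of the growth factor gene FGF2.

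Levels are CPM, a gene's counts relative to the library's gene counts, with each library scaled by edgeR's trimmed mean of M-values, and a level per kb is CPM divided by the length in kb of the exon sequence that a gene shares with no other listed gene. The libraries held between 14258919 and 29134945 gene counts, of which HOX genes took 0.0471 to 0.0897%, or 8473 to 17525 counts. A gene with 0 counts in a library could have had up to 0.0994 to 0.240 CPM there, the value of 3 counts, a limit that covers counting error only. On the second principal component of all tested genes, 6 libraries lay apart from the other 24 (score above 30): Top5 positive replicates 1 and 3, Neg-BottomR4 replicate 2, Top10 negative replicate 1, Bottom5 negative replicate 2 and Bottom10 positive replicate 3. The 9 melanocyte lineage markers summed to 387 to 1787 CPM per library, against 2.69 to 12.6 CPM for the 5 leukocyte markers and 3.19 to 23.1 CPM for the 4 endothelial markers. SOX10 made up most of the melanocyte sum, with a mean of 757 CPM, while PMEL, MLANA, TYR and TYRP1 had means below 1 CPM. The 4 epithelial markers summed to 246 to 883 CPM, the 6 keratinocyte markers to 65.2 to 219 CPM and the 6 fibroblast markers to 19.8 to 57.4 CPM.

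A375 cells carried transcripts from all 4 clusters. Per kb, HOXB2, a gene of the hindbrain in mice, was the highest member in 30 of 30 libraries, at 61.7 ± 24.7 CPM per kb (SD, n = 30). It was followed by HOXC10, a gene of the lumbar region in mice, at 28.7 ± 3.46 CPM per kb, and HOXB7 at 23.7 ± 16.2 CPM per kb. HOXB7 reached 100.4 CPM in Top5 positive replicate 1 and 119.0 CPM in Neg-BottomR4 replicate 2, against a median of 24.7 CPM over the 30 libraries. HOXB9, HOXA5, HOXB8, HOXC4 and HOXC13 came next with means between 11.9 and 16.7 CPM per kb, all within 1 SD of their neighbours in that order. All members share these libraries, and the order below HOXB2 was not compared library by library. HOXC13 is known for its part in hair and nail, and HOXA5, in mice, for its part in the lung.

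The level followed no single gradient along the clusters. The 8 members at positions 1 to 3 had a median of 1.56 CPM per kb, the 15 members at positions 4 to 8 a median of 7.42 CPM per kb and the 16 members at positions 9 to 13 a median of 3.90 CPM per kb. Position 13, the 5′ end, was occupied by transcripts in every cluster: HOXC13 had 11.9 CPM per kb, HOXB13, a gene of the prostate, 4.84 CPM per kb, HOXD13, a gene of the digits, 4.43 CPM per kb, and HOXA13, a gene of the digits and genital tract, 0.330 CPM per kb. HOXB and HOXD each held neighbours at contrasting levels. HOXB1, a gene of the hindbrain, had 1 count in all 30 libraries together, next to HOXB2. In HOXD the lowest member was HOXD12 with 15 counts in all and 0 in 19 libraries, next to HOXD13 with 6000 counts.

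**Figure D1:**
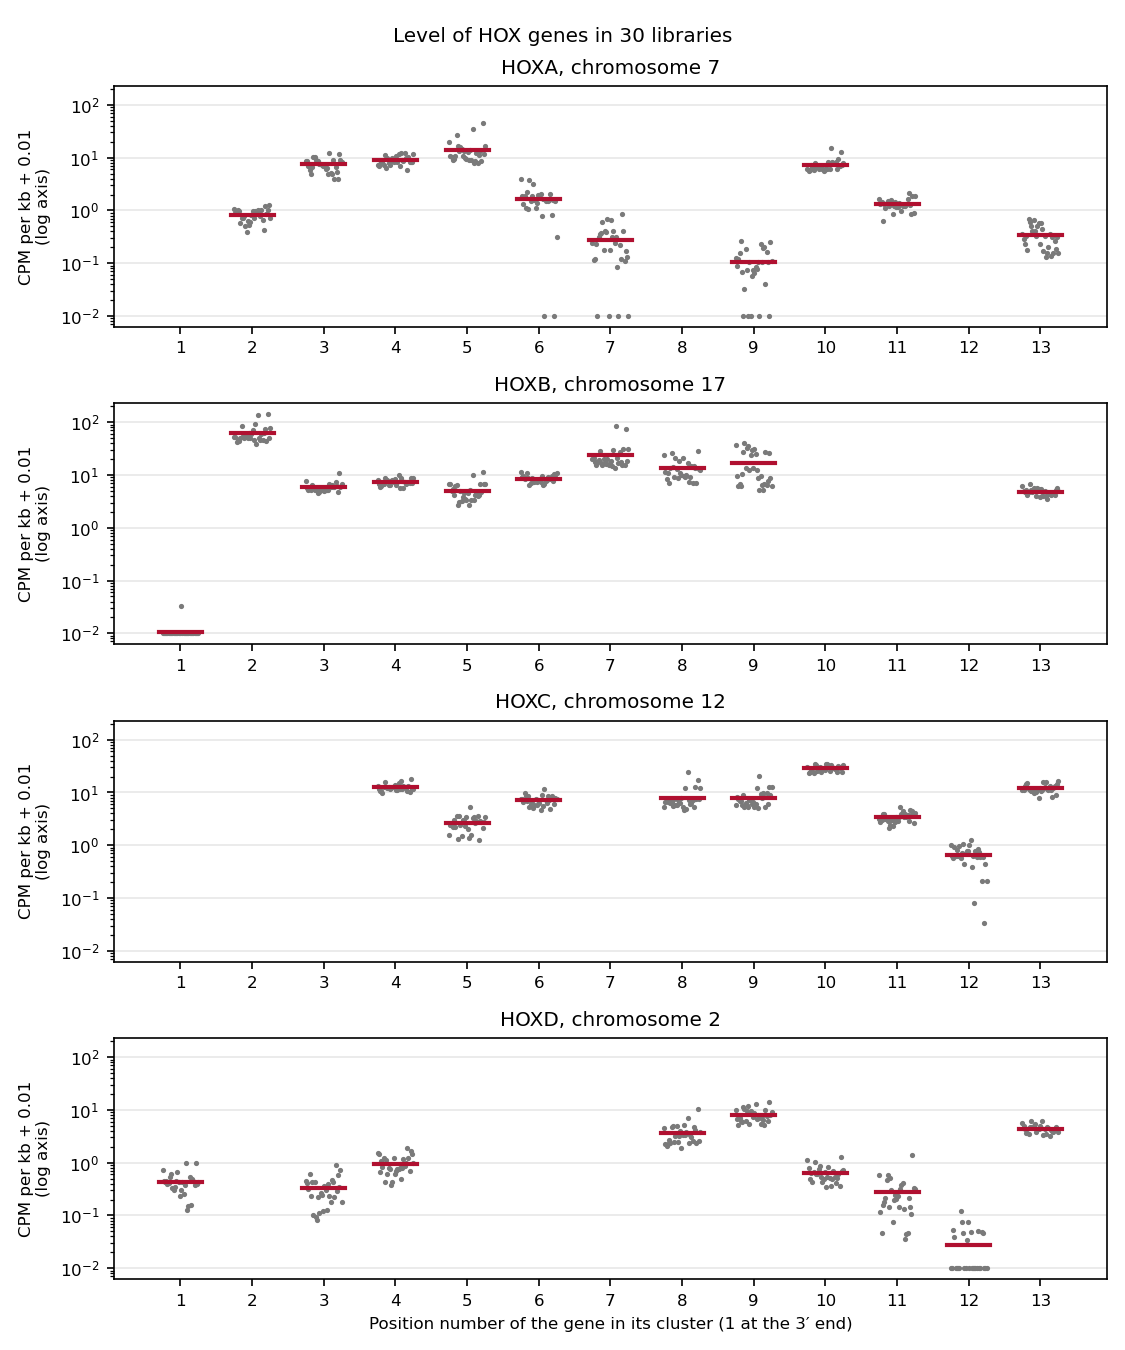
Level of HOX genes in CPM per kb plus 0.01 on a log axis, by position number in its cluster; grey points are the 30 libraries and red lines their means. HOXB2 lies highest at 61.7 CPM per kb, and HOXB1 and HOXD12 lie at the bottom beside neighbours that are well above it.

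The start regions of neighbours at low and high levels are given for comparison, from RefSeq on GRCh38.p14, from 250 bases before to 50 bases after the annotated start, 5′ to 3′ on the gene's strand. The deposited counts were made on hg19, and the windows serve only as sequence. The searched motif was the dinucleotide CG, which reads the same on both strands and is printed in capitals. HOXC4 and HOXC5 share 1 window, listed in RefSeq for both, and HOXB1, HOXD12 and HOXD13 are shown for their levels.
HOXC4 and HOXC5 (chr12:54016638-54016937, plus strand): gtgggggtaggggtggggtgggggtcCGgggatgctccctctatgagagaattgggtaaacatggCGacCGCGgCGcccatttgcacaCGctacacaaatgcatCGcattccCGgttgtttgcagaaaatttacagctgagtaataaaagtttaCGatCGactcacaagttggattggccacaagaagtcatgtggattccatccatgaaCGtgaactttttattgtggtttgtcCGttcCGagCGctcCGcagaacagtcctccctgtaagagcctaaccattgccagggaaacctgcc
HOXB1 (chr17:48530962-48531261, minus strand): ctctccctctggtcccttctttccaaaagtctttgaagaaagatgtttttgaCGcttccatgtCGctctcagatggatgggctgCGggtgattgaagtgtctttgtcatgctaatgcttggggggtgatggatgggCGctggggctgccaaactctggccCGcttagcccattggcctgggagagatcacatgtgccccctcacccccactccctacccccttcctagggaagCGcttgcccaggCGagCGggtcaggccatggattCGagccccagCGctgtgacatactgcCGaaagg
HOXD12 (chr2:176099545-176099844, plus strand): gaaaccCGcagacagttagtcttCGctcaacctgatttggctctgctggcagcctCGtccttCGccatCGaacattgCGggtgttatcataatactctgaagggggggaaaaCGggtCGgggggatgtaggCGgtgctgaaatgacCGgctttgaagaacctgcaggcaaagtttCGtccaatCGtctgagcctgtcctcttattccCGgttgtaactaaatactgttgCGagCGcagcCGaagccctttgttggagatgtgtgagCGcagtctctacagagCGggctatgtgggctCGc
HOXD13 (chr2:176092471-176092770, plus strand): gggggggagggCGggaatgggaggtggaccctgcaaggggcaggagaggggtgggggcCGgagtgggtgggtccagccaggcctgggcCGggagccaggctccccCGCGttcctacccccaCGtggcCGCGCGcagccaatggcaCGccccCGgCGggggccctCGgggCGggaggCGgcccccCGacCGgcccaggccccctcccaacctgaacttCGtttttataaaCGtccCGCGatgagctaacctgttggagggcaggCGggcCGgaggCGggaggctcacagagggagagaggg
The HOXC4 and HOXC5 window held 15 CG dinucleotides, the HOXB1 window 11, the HOXD12 window 19 and the HOXD13 window 24. RefSeq start windows were matched for 20 of the 39 members, with a median of 22 CG dinucleotides over 27 windows, against 14 over all 35116 windows of the table, of which 96.0% held at least 1. HOXD12, at almost no counts, had fewer CG dinucleotides than its neighbour HOXD13. It had more than the window shared by HOXC4 and HOXC5, which were at 12.5 and 2.63 CPM per kb. HOXB1, also at almost no counts, had the fewest of the windows shown. A link between CG count and level was not tested. A count of CG in these letters says nothing of their methylation, which was not measured.

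Counts of some members are limited by their neighbours. HOXA9 and HOXA10 lie wholly inside the listed readthrough transcript HOXA10-HOXA9, which the exon annotation behind the lengths does not hold. How reads over both were assigned is not given in the labels, and neither the HOXA9 level of 0.0940 CPM per kb nor HOXA10 values can be read as the full level of the gene. HOXA7 shares 74.7% of its exon bases with the antisense gene HOXA-AS3, and the strand setting of the counting was not given in the sources used here. HOXC4, HOXC5 and HOXC6 share 14.4 to 21.4% of their exon bases with one another. Of the 39 members, 35 passed the filter on low counts and were tested, and HOXA7, HOXA9, HOXB1 and HOXD12 were not.

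Across the 10 groups no member passed the test for any difference. With edgeR's quasi-likelihood test and Benjamini-Hochberg adjustment over 15381 genes, 0 of 35 members had an adjusted p under 0.05, against 6.12% of all tested genes. At an unadjusted p under 0.05 there were 3 members, HOXB6, HOXB9 and HOXD11, and the share of all genes was 19.0%. DESeq2 called those 3 members, against 13.6% of its genes. Group means of 22 of the 34 members without a 0 in any library differed by less than 2-fold between the highest and the lowest group. The median spread within groups was 0.414 (SD of log2 CPM) for the 35 members and 0.421 for the 11927 genes in the same range of levels, and the median spread between group means was 0.249 for the members and 0.268 for those genes.

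HOXB9, known in mice for the pattern of the rib cage, varied more within groups than any other member above 10 CPM. Sorted by level, its 30 libraries were cut at the 2 widest relative gaps, which would give 3 ranges for any gene. The upper gap, from 35.4 to 61.3 CPM, was much wider than the lower one, from 26.8 to 32.4 CPM. It had 61.3 to 104.5 CPM in 11 libraries, 32.4 to 35.4 CPM in 4 libraries and 13.3 to 26.8 CPM in 15 libraries. The highest range held replicates 1 and 2 of all 4 groups of 10 rounds, and replicate 1 of Top5 positive, Bottom5 negative and Parental negative. The middle range was made up of replicate 3 of the 4 groups of 10 rounds. HOXB9 in Parental negative cells was 96.6, 24.9 and 16.0 CPM, so that this group, like Bottom5 negative and Top5 positive, spanned the low and the high range. For the test of any difference, the adjusted p of HOXB9 was 0.153, and without Parental negative replicate 1 HOXB9 and HOXD11 were both called. Without Neg-BottomR4 replicate 2 the test of any difference called HOXA3. Shares of all genes called in these fits are not given here, so these calls are not read as a result about HOX genes.

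HOXD11, a gene of the forearm in mice, was near the detection limit in the 3 Pos-BottomR5 libraries, with 1 count in each. Its level was 0.0386, 0.0539 and 0.0567 CPM in Pos-BottomR5 cells, against 0.228, 0.265 and 0.312 CPM in Parental positive cells. These ranges were separate, and in edgeR the adjusted p was 1.00, with 0.0272 before adjustment. HOXD11 was highest in Top5 positive replicate 1, at 2.08 CPM or 26 counts.

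**Figure D2:**
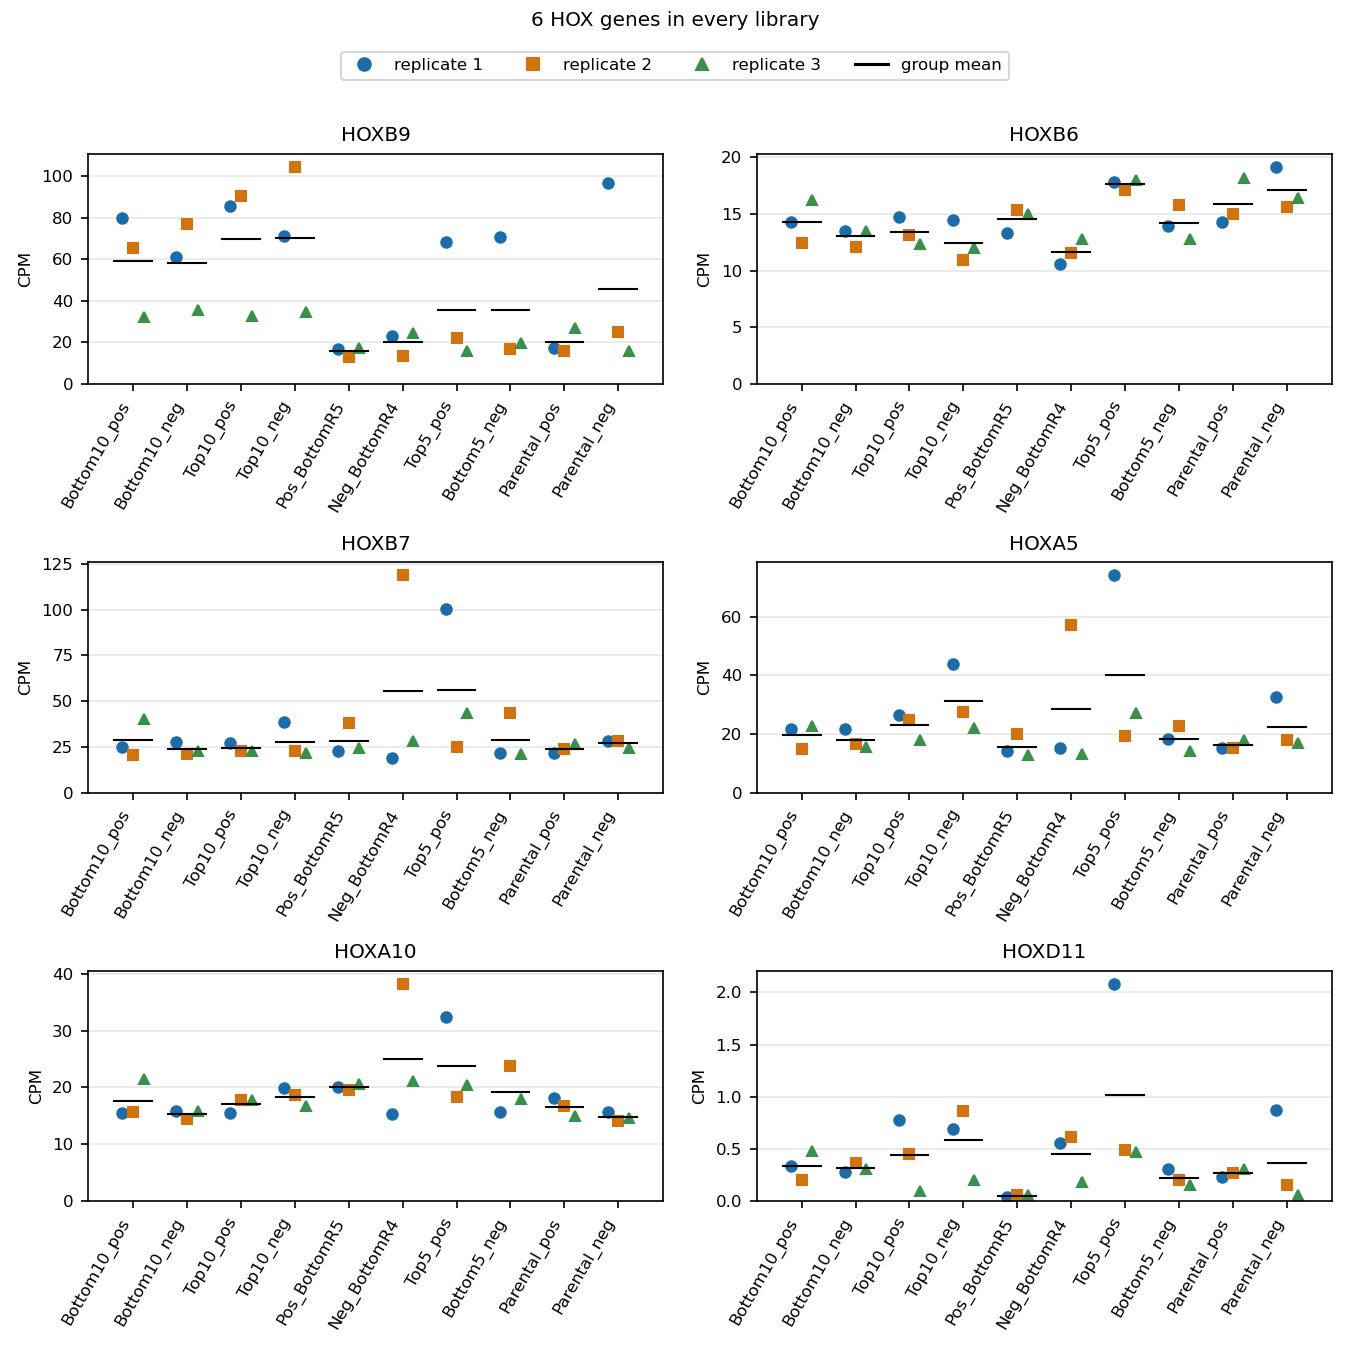
CPM of HOXB9, HOXB6, HOXB7, HOXA5, HOXA10 and HOXD11 in each library by group; symbols and colours mark the replicate number and black lines the mean of 3 libraries. HOXB9 divides by library within groups, HOXB6 varies little within groups, and HOXB7, HOXA5 and HOXA10 each reach their highest values in Top5 positive replicate 1 and Neg-BottomR4 replicate 2.

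The sort for ITGB4 was compared in 3 populations. In parental cells 0 of 35 members were called between positive and negative cells, against 0.0585% of all tested genes. After 10 rounds 0 of 35 were called among top cells, against 0.0130% of genes, and 0 of 35 among bottom cells, against 0.00% of genes. At an unadjusted p under 0.05 edgeR had 0 members in each of these comparisons, against 4.45, 1.71 and 3.57% of genes, and DESeq2 called 0 members in each, against 0.420, 0.0226 and 0.0226% of its genes. With a replicate block in the groups of 10 rounds the sort again called 0 members among top cells, against 0.240% of genes, and among bottom cells, against 0.830%.

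The member with the highest mean CPM in each cluster, which need not be the highest per kb, shows the range these data allow. HOXB2 had 68.6, 64.6 and 73.6 CPM in Parental positive cells, against 76.5, 76.5 and 63.6 CPM in Parental negative cells, and the groups overlapped. The log2 fold change was -0.07 ± 0.36 (SE), with a 95% interval from -0.82 to 0.69. HOXC10 had 49.6, 52.8 and 44.4 CPM in Parental positive cells, against 57.4, 44.8 and 45.3 CPM in Parental negative cells. These groups also overlapped, and the interval of its log2 fold change ran from -0.33 to 0.31. HOXA3 averaged 19.7 ± 3.16 CPM in Parental positive cells and 27.7 ± 3.57 CPM in Parental negative cells (SD, n = 3 each), with an interval from -1.10 to 0.12, and its groups did not overlap. HOXD9 averaged 11.9 ± 1.04 CPM in Parental positive cells and 13.5 ± 4.45 CPM in Parental negative cells, with an interval from -0.83 to 0.45.

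Among the sorted cells of 10 rounds, the members leaned one way in top cells and the other way in bottom cells. The log2 fold change of positive over negative cells was above 0 for 26 of 35 members in bottom cells, with a median of 0.11, against 54.0% of all genes and a median of 0.03. In top cells it was above 0 for 3 of 35, with a median of -0.14, against 49.5% of all genes and a median of -0.003. In parental cells it was above 0 for 10 of 35, with a median of -0.13, against 48.3% of all genes and a median of -0.01. These counts moved with single libraries. In top cells, leaving out 1 library gave 2 to 13 of 35, with 13 without Top10 positive replicate 3 and 12, at a median of -0.05, without Top10 negative replicate 1. In bottom cells they gave 21 to 26 of 35, with a median of 0.02 without Bottom10 positive replicate 3, and in parental cells 9 to 17, with 17 and a median of -0.02 without Parental negative replicate 1. Without the 6 libraries that lay apart, 12 of 35 members were above 0 in top cells and 21 of 35 in bottom cells, with medians of -0.05 and 0.02. The members share their libraries, and these counts are a description with no test.

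Cells that crossed in 10 rounds were then compared with cells that did not. Between Bottom10 negative and Top10 negative cells 0 of 35 members were called, against 1.33% of all tested genes, and between Bottom10 positive and Top10 positive cells 0 of 35 were called, against 0.943%. At an unadjusted p under 0.05 edgeR had 0 members in the negative cells, against 9.04% of genes, and 2 members, HOXC11 and HOXA2, in the positive cells, against 9.0%. DESeq2 called 0 members in either comparison, against 2.26 and 1.70% of its genes. Libraries of the 4 groups of 10 rounds that carried the same replicate number deviated together from their group means, so the numbers pair them.

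With the replicate number as a block in the 4 groups of 10 rounds, HOXA3 and HOXA5 fell in Bottom10 negative cells, 2 of 35 members, against 9.29% of 14587 genes. HOXA3, a gene needed for the thymus in mice, had 25.4, 24.7 and 23.7 CPM in Bottom10 negative cells, against 34.4, 35.4 and 31.2 CPM in Top10 negative cells (replicates 1 to 3). The groups did not overlap and all 3 pairs were lower below the membrane. The log2 fold change was -0.45 ± 0.10 (SE), with an adjusted p of 0.0205 in edgeR under the block. The same difference without the block had a standard error of 0.29 and an adjusted p of 0.804.

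HOXA5 had 21.7, 16.5 and 15.7 CPM in Bottom10 negative cells, against 43.9, 27.5 and 21.9 CPM in Top10 negative cells. The lowest Top10 negative library lay just above the highest Bottom10 negative one, and all 3 pairs were lower below the membrane. The log2 fold change was -0.76 ± 0.20, with an adjusted p of 0.0406 in edgeR under the block. Both calls held without replicate 3 and were lost without replicate 1 or 2. A block over all 10 groups called neither, with adjusted p values of 0.646 for HOXA3 and 0.596 for HOXA5. Top10 negative replicate 1, with the highest HOXA5 level of these groups, is 1 of the 6 libraries that lay apart. Without that library, and without a block, the log2 fold change was -0.46 for HOXA5 and -0.43 for HOXA3, against -0.79 and -0.45 with it.

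In the positive cells HOXA3 had the same sign without passing. It had 24.7, 20.4 and 22.0 CPM in Bottom10 positive cells, against 29.3, 29.8 and 26.1 CPM in Top10 positive cells. The groups did not overlap and 3 of 3 pairs were lower, with a log2 fold change of -0.34 ± 0.10 and an adjusted p of 0.0737 in edgeR under the block, which called 0 of 35 members in this comparison, against 7.75% of genes. HOXA5 differed less, with 21.6, 14.96 and 22.7 CPM in Bottom10 positive cells, against 26.3, 24.7 and 17.8 CPM in Top10 positive cells, and these groups overlapped. HOXC11, a gene at the 5′ side of HOXC, had 9.56, 11.0 and 17.2 CPM in Bottom10 positive cells, against 7.78, 9.57 and 7.38 CPM in Top10 positive cells. Its groups overlapped slightly, and its log2 fold change was 0.61 ± 0.23, with an adjusted p of 0.342 without the block. The highest value is Bottom10 positive replicate 3, which lay apart, and without it the log2 fold change was 0.31.

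Whether the sort changed the effect of the side was tested directly. The interaction called 0 of 35 members in edgeR, against 0.00% of genes, with 0 members at an unadjusted p under 0.05, against 2.87% of genes. Under the block it also called 0 members and 0.00% of genes, and DESeq2 called 0, against 0.00% of its genes. The log2 interaction was bottom over top in positive cells minus bottom over top in negative cells. Without the block it was above 0 for 35 of 35 members and reached 0.99 for HOXD3. Its median was 0.20, against 0.03 for all genes, of which 52.3% were above 0. The same value is the sort difference in bottom cells minus that in top cells. These counts thus restate the opposite lean given above and are a description with no test. Under the block the bottom over top log2 fold change of HOXA6 was -0.446 in positive and -0.381 in negative cells, the other way. Leaving out 1 library gave 24 to 35 members above 0 and medians from 0.13 to 0.35, with 24 without Top10 positive replicate 3 and 25 without Top10 negative replicate 1. Without the 6 libraries that lay apart it was above 0 for 23 of 35, with a median of 0.08.

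**Figure D3:**
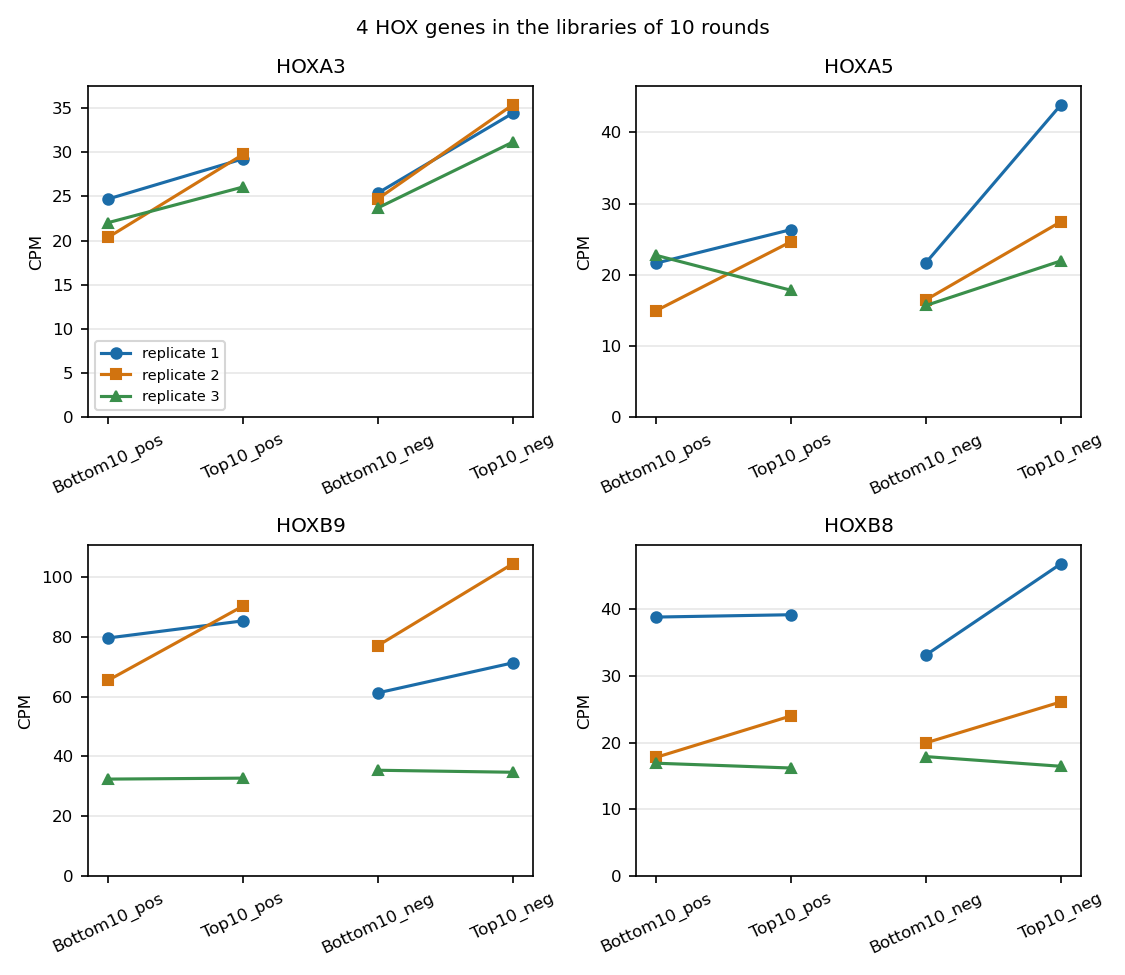
CPM of HOXA3, HOXA5, HOXB9 and HOXB8 in the 4 groups of 10 rounds; lines join bottom and top libraries with the same replicate number. HOXA3 lies lower in all 6 bottom libraries than in the top library of the same number, while HOXB9 is lowest in replicate 3 and HOXB8 highest in replicate 1 of each group.

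Within the 12 libraries of 10 rounds, some HOX genes differed by replicate number, in a smaller share than all genes. The replicate number term of the block called 10 of 35 members, or 28.6%, against 44.7% of all tested genes. The numbers were taken as pairs because these same libraries deviate together over all genes. Many calls for the number were thus built in, and the values below are a description. HOXB8, which neighbours HOXB9, had 33.1 to 46.8 CPM in the 4 libraries numbered 1, 17.8 to 26.1 CPM in those numbered 2 and 16.2 to 17.9 CPM in those numbered 3. Libraries numbered 1 did not overlap with the others. For any difference among the numbers, the adjusted p of HOXB8 was 0.000171 in edgeR. HOXB9 had 61.3 to 85.4 CPM in those numbered 1, 65.5 to 104.5 CPM in those numbered 2 and 32.4 to 35.4 CPM in those numbered 3 (adjusted p = 0.000228).

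HOXD8 and HOXD9 had their lowest means in libraries numbered 3, without overlap for HOXD9 and with a slight overlap for HOXD8. HOXD8 averaged 9.39, 12.4 and 6.69 CPM in libraries numbered 1, 2 and 3, and HOXD9 averaged 18.2, 20.5 and 11.9 CPM. HOXC5 and HOXC8 had their highest means in libraries numbered 3, at 6.84 and 16.3 CPM. HOXA13, HOXB5, HOXB13 and HOXC6 made up the rest of the 10. What the number stands for in culture or handling is not given in the labels.

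Cells of 10 rounds were also set against parental cells of the same sort, and each pair of comparisons shares its parental libraries. No member was called in any of the 4 comparisons, by edgeR or by DESeq2. Of 35 members, 0 were called in Bottom10 positive over Parental positive cells, against 0.247% of genes, and 0 in Bottom10 negative over Parental negative cells, against 0.325%. In Top10 positive over Parental positive cells 0 were called, against 0.384% of genes, and in Top10 negative over Parental negative cells 0, against 0.0455%. At an unadjusted p under 0.05 these comparisons had 2, 1, 5 and 1 members, against 8.30, 7.64, 9.05 and 4.74% of genes, and in the same order DESeq2 called 0.689, 0.995, 1.34 and 0.276% of its genes.

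HOXB9 was higher than in every Parental positive library in both groups of 10 rounds. It had 79.7, 65.5 and 32.4 CPM in Bottom10 positive cells and 85.4, 90.4 and 32.8 CPM in Top10 positive cells, against 17.5, 15.7 and 26.8 CPM in Parental positive cells. Neither group of 10 rounds overlapped with the parental one. The log2 fold changes were 1.57 ± 0.64 for Bottom10 positive cells (adjusted p = 0.523 in edgeR) and 1.80 ± 0.65 for Top10 positive cells (adjusted p = 0.325). In the negative cells HOXB9 had 61.3, 77.1 and 35.4 CPM in Bottom10 and 71.3, 104.5 and 34.7 CPM in Top10 libraries, and both ranges overlapped with that of Parental negative cells, given above.

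HOXC10 had 64.8, 64.2 and 61.5 CPM in Bottom10 positive cells, against 49.6, 52.8 and 44.4 CPM in Parental positive cells. Both groups were separate, with a log2 fold change of 0.38 ± 0.15 and an adjusted p of 0.519. HOXB6, a gene of the trunk in mice, was lower in both negative groups of 10 rounds, with 13.5, 12.1 and 13.5 CPM in Bottom10 negative cells and 14.4, 11.0 and 12.0 CPM in Top10 negative cells, against 19.2, 15.6 and 16.4 CPM in Parental negative cells. No library of either group reached the lowest parental one, and the adjusted p values were 0.473 and 0.625. HOXD3, a gene of the neck vertebrae in mice, had 0.172, 0.501 and 0.246 CPM in Top10 positive cells, against 1.44, 0.530 and 1.01 CPM in Parental positive cells. These groups were separate, at 4 to 10 counts per library above the membrane, and the adjusted p was 0.383.

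In cells sorted before migration, HOXB6 came nearest to a call. Of 35 members, 0 were called by edgeR in Neg-BottomR4 over Parental negative cells, against 2.00% of genes, and 0 in Pos-BottomR5 over Parental positive cells, against 0.0390%. At an unadjusted p under 0.05 there were 5 members, against 19.5% of genes, and 1 member, against 3.01%. DESeq2 called 1 member, HOXB6, in the comparison of negative cells, against 4.45% of its genes, and 0 in the comparison of positive cells, against 0.149%.

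HOXB6 had 10.6, 11.5 and 12.8 CPM in Neg-BottomR4 cells, against 19.2, 15.6 and 16.4 CPM in Parental negative cells. The groups did not overlap, and the mean ratio was 0.683. The log2 fold change was -0.55 ± 0.16 (SE), with a 95% interval from -0.87 to -0.23 and an adjusted p of 0.0632 in edgeR. In DESeq2 the adjusted p was 0.00789, and in edgeR with only the compared groups it was 0.547. HOXB6 shares 14.4% of its exon bases with the antisense gene HOXB-AS3, and its within-group SD of 0.145 (log2) was the lowest of the tested members.

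HOXA10, known for the uterus and for blood cells and counted within the limit of the readthrough, had 15.3, 38.3 and 21.2 CPM in Neg-BottomR4 cells, against 15.6, 14.02 and 14.7 CPM in Parental negative cells. The groups overlapped, with a log2 fold change of 0.75 ± 0.25 and an adjusted p of 0.118 in edgeR. Without Neg-BottomR4 replicate 1 the adjusted p of HOXA10 was 0.0318. The remaining libraries include replicate 2, which lay apart, and the share of all genes called in that fit is not given here.

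After 5 rounds, Top5 positive cells had the largest share of HOX members at a low unadjusted p. Of 35 members, 0 were called by edgeR in Top5 positive over Parental positive cells, against 0.163% of genes, and 0 in Bottom5 negative over Parental negative cells, against 0.858%. At an unadjusted p under 0.05 there were 12 members in the Top5 comparison, against 17.4% of genes, and 1 member, HOXA3, in the Bottom5 comparison, against 9.14%. DESeq2 called 0 members in either, against 0.360 and 1.95% of its genes. The 12 became 0 without Top5 positive replicate 1, against 3.47% of genes, and 6 without Parental positive replicate 1, against 12.3%. The median log2 fold change of the members was 0.38 in the Top5 comparison, against 0.02 for all genes, and -0.07 in the Bottom5 comparison, against 0.02. The Top5 median was 0.22 without Top5 positive replicate 1 and 0.13 without the libraries that lay apart, which leaves 1 Top5 library.

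The Top5 positive values differed widely among the 3 libraries. HOXA5 had 74.2, 19.1 and 26.96 CPM in Top5 positive cells, against 15.2, 15.4 and 18.0 CPM in Parental positive cells. HOXB2 had 208.7, 75.6 and 117.5 CPM in Top5 positive cells, against 68.6, 64.6 and 73.6 CPM in Parental positive cells. Neither gene's groups overlapped, the log2 fold changes were 1.31 ± 0.47 for HOXA5 and 0.96 ± 0.37 for HOXB2, and the adjusted p values were 0.227 and 0.237 in edgeR. HOXC12, a gene at the 5′ side of HOXC, had 0.0802, 1.42 and 0.672 CPM in Top5 positive cells, against 3.00, 2.07 and 2.73 CPM in Parental positive cells. Every Top5 value was below every parental one, with a log2 fold change of -1.80 ± 0.65 and an adjusted p of 0.228. Leaving out Top5 positive replicate 2 leaves the 2 libraries that lay apart. In that fit HOXA5, HOXB2 and HOXD8 rose and HOXC12 fell, with adjusted p values from 0.0415 to 0.0466 in edgeR. The share of all genes called in that fit is not given here, so these calls are not read as a result about HOX genes.

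HOXA3 had 22.2, 18.4 and 13.2 CPM in Bottom5 negative cells, against 29.5, 29.9 and 23.5 CPM in Parental negative cells. The groups did not overlap, with a log2 fold change of -0.63 ± 0.30 and an adjusted p of 0.526 in edgeR. The replicate numbers also pair these groups, and with a block 0 members were called, against 3.82% of genes in the compared groups alone and 1.43% over all 10 groups.

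**Figure D4:**
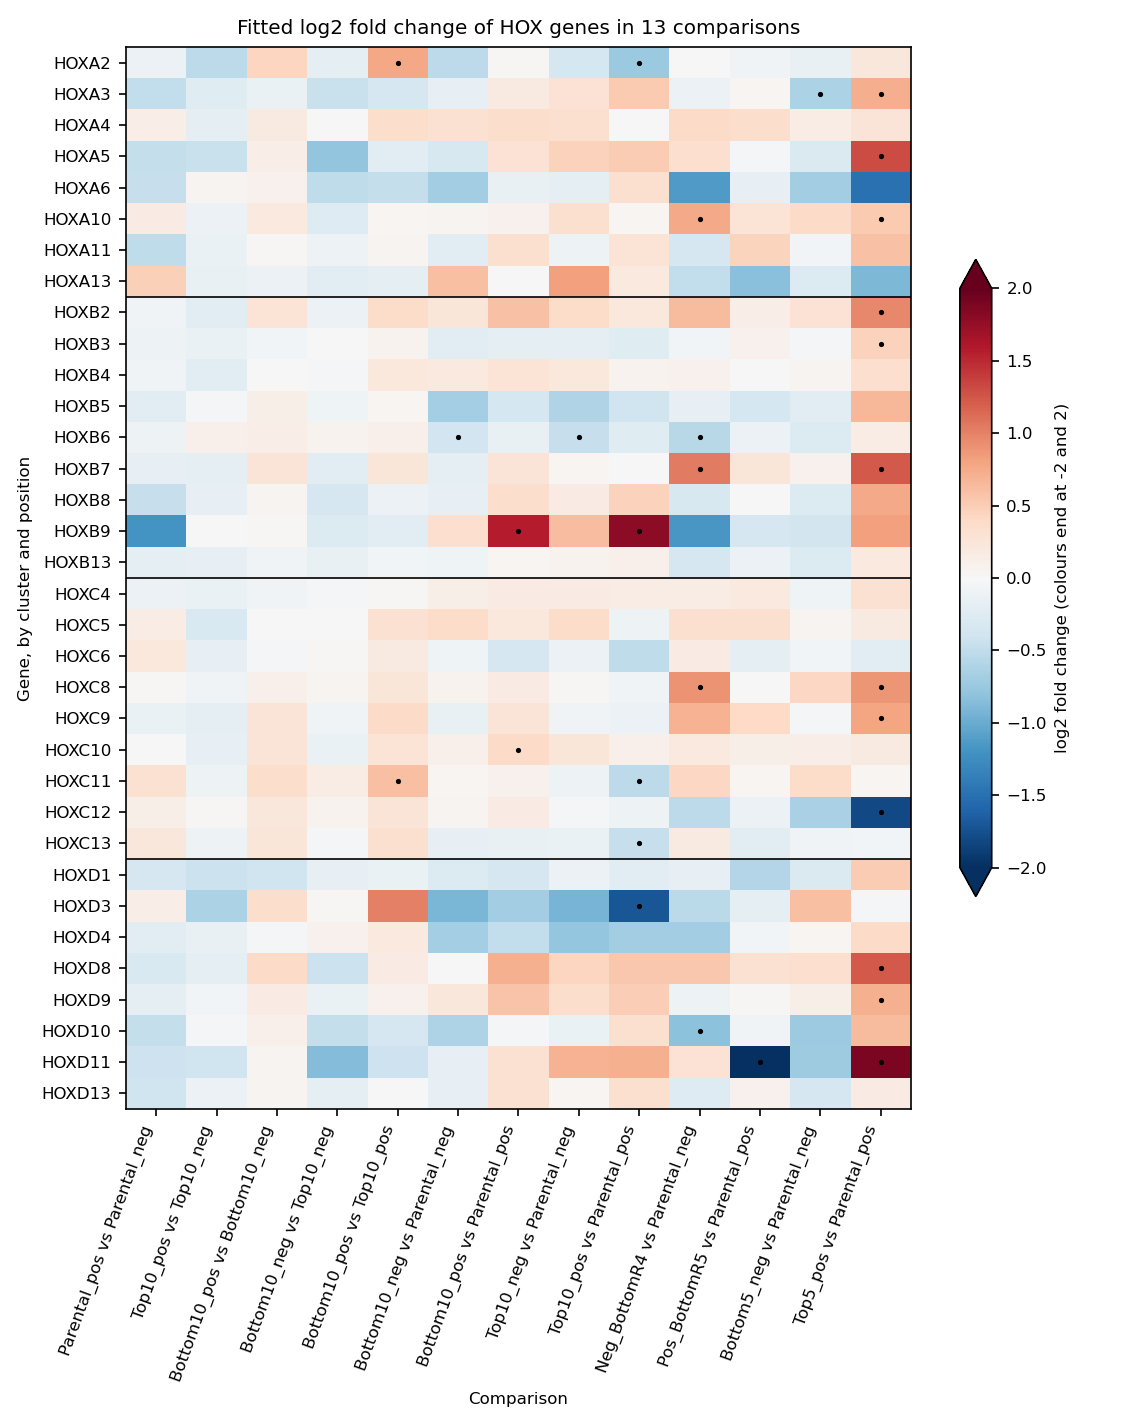
Fitted log2 fold change of tested HOX genes (rows, by cluster and position) in 13 comparisons (columns); red is higher in the first group, blue lower, and dots mark an unadjusted p under 0.05. Of the 13 columns, Top5_pos vs Parental_pos holds the most dots, 12, and no cell passed an adjusted p of 0.05.

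Both libraries farthest apart from the rest, Top5 positive replicate 1 and Neg-BottomR4 replicate 2, each had HOX levels outside those of the other libraries, in part for the same genes. These libraries were picked by a component that used all genes, so the values are a description with no test. Against the median of the other 24 libraries, 12 of 35 members were at least 2-fold higher in Top5 positive replicate 1, against 16.5% of genes, and 2 were at least 2-fold lower, against 15.9%. In Neg-BottomR4 replicate 2, 9 members were at least 2-fold higher, against 14.0% of genes, and 4 at least 2-fold lower, against 16.4%. The other 4 libraries apart had 1 to 4 members at least 2-fold higher, against 4.04 to 5.56% of genes.

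HOXB7 had 100.4 CPM in Top5 positive replicate 1 and 119.0 CPM in Neg-BottomR4 replicate 2, against a median of 23.5 CPM in the other 24 libraries and a range of 18.9 to 37.9 CPM. HOXC8, a gene of the brachial spinal cord in mice, had 31.9 and 45.5 CPM in the same order of libraries, against 8.74 to 14.6 CPM in the other 24. HOXB2 had 208.7 and 203.2 CPM, against 57.0 to 103.5 CPM. In all 3 genes both libraries lay above every one of the 24. Other members differed between the pair: HOXB9 had 68.1 CPM in Top5 positive replicate 1 and 13.4 CPM in Neg-BottomR4 replicate 2, against a median of 29.8 CPM in the other 24.

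HOXA6 and HOXC12 went the other way. HOXA6 had 0 counts in both libraries, at least 5.88-fold and 6.17-fold lower than the median of 1.41 CPM in the other 24, where it had 0.953 to 3.51 CPM. HOXC12 had 0.0802 CPM, from 1 count, and 0.229 CPM, from 3 counts, against 1.42 to 4.14 CPM. HOXC10 had 58.5 and 62.8 CPM, inside the range of 44.4 to 64.8 CPM of the other 24.

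Top5 positive replicate 1 and Neg-BottomR4 replicate 2 also had the largest shares of reads assigned to no gene, 31.8 and 30.1%, in a range that began at 22.1%. The 9 melanocyte markers summed to 1176 and 507 CPM in these libraries, against 399.9 to 1787 CPM in the other 24. The 5 leukocyte markers summed to 3.45 and 12.5 CPM, against 2.69 to 11.8 CPM, with 2 of the 5 at 0 in both. The 6 keratinocyte markers summed to 149 and 219 CPM, against 65.2 to 165 CPM, with 2 of the 6 at 0 in both. The part of read assignment or of other cells in the HOX levels was not tested.

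**Figure D5:**
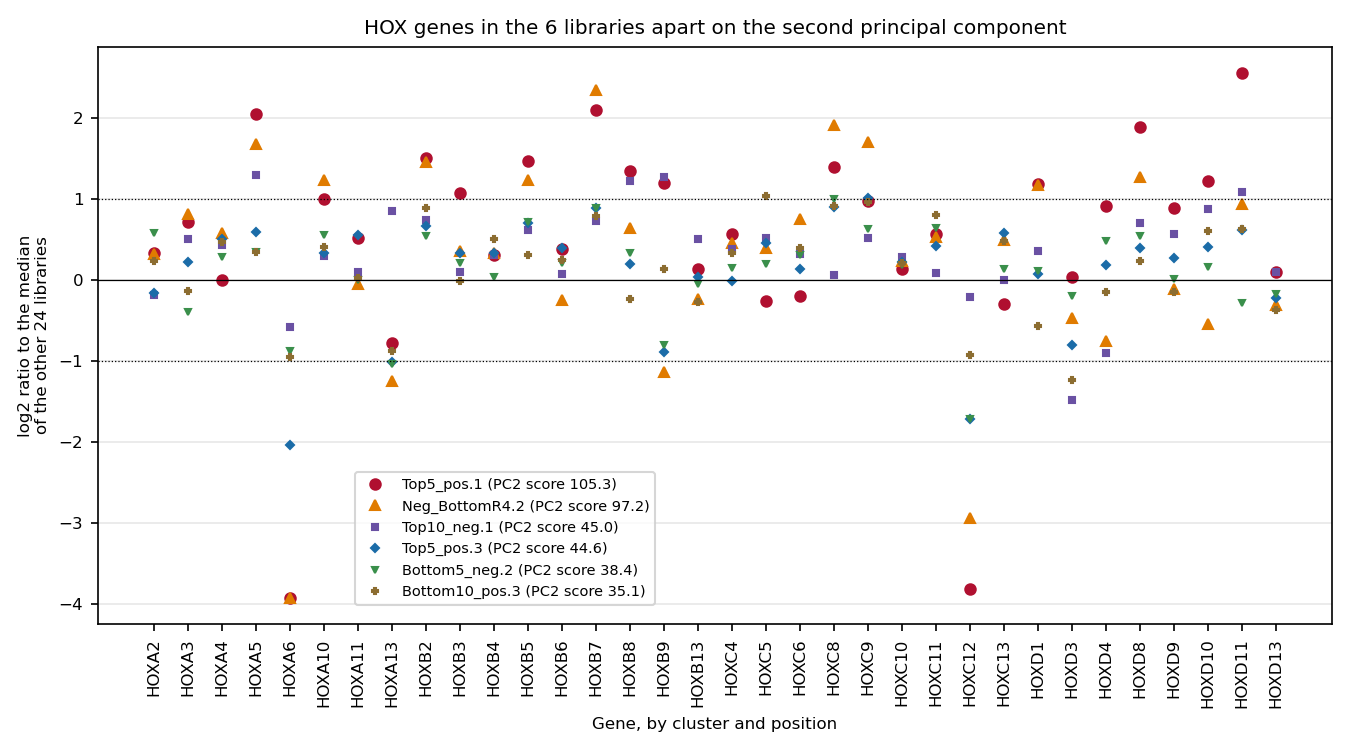
log2 ratio of tested HOX genes to the median of the other 24 libraries in the 6 libraries apart on the second principal component; dotted lines mark 2-fold. Top5_pos.1 and Neg_BottomR4.2 lie highest for HOXA5, HOXB2, HOXB7 and HOXD8 and lowest for HOXA6 and HOXC12.

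Genes that act with or on the HOX clusters were counted by the same tests. Over all tested genes, 8.20% of gene and comparison pairs in the 13 comparisons were at an unadjusted p under 0.05 and 0.493% were called, and 6.12% of genes were called for any difference. The 9 PBX, MEIS and PKNOX cofactors were all tested. At an unadjusted p under 0.05 in edgeR were 14 of their 117 gene and comparison pairs, a larger share than over all genes. Of these cofactors 1 was called for any difference among the groups, and in single comparisons 1 fell in Neg-BottomR4 and 1 in Bottom5 negative cells. Both calls were PKNOX2, which had 2.71, 2.60 and 1.87 CPM in Neg-BottomR4 cells and 1.86, 1.65 and 1.15 CPM in Bottom5 negative cells, against 10.6, 10.0 and 9.68 CPM in Parental negative cells. The groups were far apart, with log2 fold changes of -2.08 ± 0.35 (adjusted p = 0.00275 in edgeR) and -2.70 ± 0.37 (adjusted p = 0.000377). The Parental negative libraries serve both comparisons, and with only the compared groups in the fit the adjusted p values were 0.204 and 0.0925 in edgeR. PKNOX2 was also below the Parental negative values in Parental positive cells, which did not migrate, at 2.85, 2.28 and 6.165 CPM, without a call.

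Of 28 Polycomb genes, edgeR called 1, PHC2, for any difference and 0 in the 13 comparisons, with 25 of 364 gene and comparison pairs at an unadjusted p under 0.05. Of 17 Trithorax and demethylase genes edgeR called 0 in any test, with 6 of 221 pairs at an unadjusted p under 0.05. Among 14 tested retinoid genes 3 were called for any difference, RARB, RXRG and STRA6. At an unadjusted p under 0.05 in edgeR were 34 of 182 retinoid pairs, a larger share than over all genes. RARB, a retinoic acid receptor gene, fell in Bottom10 positive cells, with 1.04 ± 0.745 CPM against 3.21 ± 0.139 CPM in Top10 positive cells (SD, n = 3 each), a log2 fold change of -1.61 ± 0.38 and an adjusted p of 0.0348 in edgeR. This call was lost without any 1 of the 6 libraries other than Bottom10 positive replicate 1, with adjusted p values from 0.0840 to 0.262. In negative cells RARB went the other way without a call. It had 4.01, 4.54 and 2.82 CPM in Bottom10 negative cells, against 2.905, 1.77 and 2.24 CPM in Top10 negative cells. Of 5 tested homeobox relatives outside the clusters, 1, PDX1, was called for any difference. For these relatives 11 of 65 pairs were at an unadjusted p under 0.05 in edgeR, also a larger share than over all genes. PDX1 fell in Bottom10 negative cells, with 0.236 ± 0.0620 CPM against 0.770 ± 0.160 CPM in Top10 negative cells and 0.996 ± 0.378 CPM in Parental negative cells (adjusted p = 0.0467 and 0.0304 in edgeR). The call against Top10 negative cells was lost without any 1 of its 6 libraries (adjusted p from 0.0663 to 0.342), and that against Parental negative cells without any 1 other than Parental negative replicate 3 (0.0953 to 0.305). The Bottom10 negative values of PDX1 rest on few counts. They were 0.283, 0.166 and 0.260 CPM, in libraries where 3 counts equal 0.170, 0.0994 and 0.130 CPM.

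The noncoding RNAs of the clusters were at low levels. Of 16 in the files, 12 were tested and edgeR called 0 in any test, with 8 of 156 gene and comparison pairs at an unadjusted p under 0.05. HOTAIR, a noncoding RNA of the HOXC cluster, had 0.885 to 4.62 CPM, and HAGLR of the HOXD cluster 5.22 to 18.5 CPM, both highest in Parental negative replicate 1. HOTAIRM1, at the 3′ end of HOXA, reached 16.1 CPM in Neg-BottomR4 replicate 2, against a median of 3.59 CPM over the 30 libraries. Of the genes that flank the clusters, 22 were tested and edgeR called 0 in any of the 15 tests, with 10 of 286 pairs at an unadjusted p under 0.05.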

How the data were processed

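Sequencing of polyadenylated RNA gave 30 libraries of A375 cells. The authors deposited raw counts of reads per gene symbol, 1 table per library. The submitters' processing notes name STAR, HTSeq, DESeq and the build hg19; their versions, the annotation and the strand setting are not given in the sources used here. Rows that name no gene (22.1 to 31.8% of reads) were left out of library sizes and tests. No 2 libraries of a group were copies: chi-square over degrees of freedom began at 9.67. The files list no coordinates; chromosomes, exon lengths and overlaps were matched by symbol from GENCODE on GRCh38.

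Genes were filtered with filterByExpr (minimum count 10, minimum total 15), leaving 15381, and fitted in edgeR 4.0.16 (R 4.3.3) with TMM factors and the quasi-likelihood test over all 10 groups. A gene was called at a Benjamini-Hochberg adjusted p under 0.05 over all tested genes. Standard errors are the log2 fold change over the square root of F. DESeq2 1.42.0, other size factors, no filter, smaller sets of groups, a replicate block and each library left out were alternatives. Replicate numbers were taken to pair 2 groups when all 3 same-numbered pairs correlated above 0.1 in their deviations from the group means; this held for the 4 comparisons of sort or side after 10 rounds (0.265 to 0.791) and for Bottom5 negative with Parental negative (0.379 to 0.590). On simulated counts for Bottom10 negative over Top10 negative cells (15162 genes), the test found 21 of 100 genes with a 2-fold change and 78 of 100 with a 4-fold change, with 2 false calls among 101.

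The members and gene lists were chosen with earlier results of these data known; HOTS, listed among the noncoding RNAs of the clusters, lies outside them and was left out. Members given with values are the one with the highest mean CPM in each cluster, any member called, and others chosen after their values were seen. Levels at low counts carry counting error, and PCR reads are not independent molecules. 1 item is counted among the members but not reported here or drawn in the figures.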

Additional observations from a re-analysis of the deposited data

How the results depend on the processing

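The 15 counts of called members were recomputed under 230 alternatives in all, and 221 of these gave 0 members as in the values reported; 11 of the counts were 0 under every alternative run. Replicate numbers pair the groups of 10 rounds. With a replicate block in these groups, 2 members were called in Bottom10 negative over Top10 negative cells, and leaving out 1 replicate number under that block, an alternative chosen after seeing the data, gave 0 to 2. With a replicate block over all 10 groups, 1 member, HOXB6, was called in Neg-BottomR4 over Parental negative cells, whose numbers do not pair (adjusted p = 0.0489 in edgeR), and the block moved no other count. DESeq2 called 3 members for any difference and 1 in Neg-BottomR4 over Parental negative cells. Leaving out each library in turn gave 0 to 2 members for any difference, 0 to 1 for Neg-BottomR4 over Parental negative cells and 0 to 4 for Top5 positive over Parental positive cells. Shares of all genes called are not given here for these fits or for the HOXB6 call under the block. These counts are thus not read as a result about HOX genes. Without the 6 libraries that lay apart, also chosen after seeing the data, every one of the 15 counts was 0; this leaves Top5 positive with 1 library, which is taken to vary like the other groups.

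Of 317 alternative values for 24 log2 fold changes, 314 kept their direction. The log2 fold change of HOXB7 in Neg-BottomR4 over Parental negative cells was 1.03, ran from -0.18 (without Neg-BottomR4 replicate 2) to 1.45 with 1 library left out, and was -0.20 without the 6 libraries that lay apart. That of HOXA5 in Bottom10 positive over Top10 positive cells was 0.048 under the block without replicate 2, against -0.215. The cause was not tested. Members under 1 CPM rest on few counts per library. In counts simulated with the spread fitted to these libraries, 2-fold differences were mostly not detected. That simulation covered 1 comparison without pairing or a block, and it did not vary the depth.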
